A study of Mus musculus with 34 samples.

Results

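Macrophages live in the neonatal heart beside fibroblasts and cardiomyocytes, and they can be carried along when fibroblasts are isolated. The genes described here are 38 genes of macrophages and antigen-presenting cells, chosen by name from the gene symbols of the arrays (Emr1 is the array's older symbol for Adgre1, which encodes F4/80), out of 19410 genes tested. They were followed across 17 groups of mouse cells with 2 arrays each, 34 single-colour Agilent arrays in all. All cells were of CD1 strain with the genotype aMHC-GFP, per the labels, and derived from pups at postnatal day 1.5.

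The groups were contractile iCM, which are cardiac fibroblasts converted directly towards cardiomyocytes, at 4 weeks. Cells infected with MGT, a retrovirus that carries Mef2c, Gata4 and Tbx5 in a single polycistronic transgene, were taken on days 3, 5, 7, 10 and 14. Cells infected with LacZ were taken on the same days, and the fibroblasts that entered the experiment were taken on day 0. Cardiomyocytes made from 2 lines of induced pluripotent stem cells were iPSC1-CM on day 13 and iPSC2-CM on days 9 and 29. Those lines were derived from cardiac fibroblasts with Oct4, Sox2, Klf4 and cMyc. Neonatal cardiomyocytes (neoCM) and neonatal cardiac fibroblasts (neoCF) were freshly isolated. The 4-week iCM and the iPSC-CM were kept in StemPro-34 medium with GlutaMAX, ascorbic acid, VEGF, bFGF and FGF10. The labels give no cell sort for any group, nor whether the 2 replicates of a group were cultured separately. The p-values therefore measure the spread between these samples only. For each gene that spread is pooled over all 17 groups, so it is not the spread of the 2 groups compared.

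Tissue macrophages depend on signalling through the receptor Csf1r and on the transcription factor PU.1, the product of Spi1. Those of the heart are known to include cells seeded before birth, often marked by Lyve1, Folr2 and Mrc1, and cells renewed from blood monocytes through Ccr2. Antigen presentation to helper T cells runs through class II molecules, whose chains H2-Aa and H2-Ab1 are assembled with the invariant chain Cd74, and through the costimulator Cd86. Cx3cr1 is the receptor for fractalkine, and it is found on monocytes and many resident macrophages.

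Promoter sequences are shown first, because PU.1 binds sites with a GAGGAA core and the 3 lineage genes among the members include Spi1 itself. RefSeq promoter windows (GRCm38.p6, 250 bases before to 50 bases after a gene's start) matched 27 of the 38 members, with 34 windows. Csf1r, Cd74, Cd52, Lyve1, Cd86, Tyrobp, Siglec1, Cd14, H2-Ab1, Spi1 and Emr1 had no entry. GAGGAA, searched on both strands (TTCCTC on the other), was found in 15 of the 27 members, or 55.6%, against 31.3% of all 27025 genes with a window. The Y box letters of class II promoters, CTGATTGG on either strand (CCAATCAG), were found in 2 of the 27 members, H2-Aa and Irf8, or 7.41%, against 4.70% of all genes. A match is a description of the letters, and binding was not measured. The 150 bases before the start follow for 6 members picked among those with a match, 5′ to 3′ on the gene's strand, with the match in capitals. Cx3cr1, Ccr2, Coro1a, Folr2, Cd163, Fcer1g, Mertk, Lyz1, Lyz2 and Mpeg1, which the results also name, had a window without a match to either motif and are not printed.
Laptm5 (chr4:130913166-130913315, plus strand): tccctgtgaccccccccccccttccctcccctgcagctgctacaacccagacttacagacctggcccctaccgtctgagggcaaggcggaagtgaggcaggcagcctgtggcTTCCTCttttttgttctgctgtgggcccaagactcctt
Mrc1 (chr2:14229264-14229413, plus strand): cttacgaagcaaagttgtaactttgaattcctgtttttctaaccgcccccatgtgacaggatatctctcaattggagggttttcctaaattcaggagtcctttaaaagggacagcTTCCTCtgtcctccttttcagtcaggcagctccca
F13a1 (chr13:37050245-37050394, minus strand, 1 of its windows): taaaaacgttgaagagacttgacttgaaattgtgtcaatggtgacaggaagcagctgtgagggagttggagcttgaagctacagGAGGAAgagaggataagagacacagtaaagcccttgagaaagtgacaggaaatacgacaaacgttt
Fcgr1 (chr3:96293970-96294119, minus strand): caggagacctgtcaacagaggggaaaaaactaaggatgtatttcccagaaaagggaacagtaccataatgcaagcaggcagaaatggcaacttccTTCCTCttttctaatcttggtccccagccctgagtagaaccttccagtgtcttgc
Trem2 (chr17:48346251-48346400, plus strand): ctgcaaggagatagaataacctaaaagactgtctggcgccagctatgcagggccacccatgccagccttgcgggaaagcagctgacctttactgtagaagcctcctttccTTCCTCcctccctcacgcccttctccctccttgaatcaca
H2-Aa (chr17:34287824-34287973, minus strand, Y box in capitals): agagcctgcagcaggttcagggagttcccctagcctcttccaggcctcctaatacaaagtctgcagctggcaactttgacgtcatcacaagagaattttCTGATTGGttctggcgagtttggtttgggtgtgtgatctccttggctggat
The capital base nearest to the start was at -33 in Laptm5, -30 in Mrc1, -61 in F13a1, -50 in Fcgr1, -35 in Trem2 and -44 in H2-Aa. Here -1 is the last base before the annotated start. Only the 150 bases before the start are printed, so the closeness of the capitals to it is set by that choice. Further GAGGAA matches lay outside these bases, in Mrc1 from -180 and -167 and in F13a1 after the start.

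A level is log2 of the fluorescence intensity minus that of the array's 75th percentile, so 0 is the percentile itself, and levels of different genes are not set against each other because each rests on its own probe. A gene is called higher or lower at a limma adjusted p under 0.05 (Benjamini-Hochberg over all genes) and a change of at least 2-fold. Changes are given with ± their standard error, and values in pairs are the 2 arrays of a group. A gene counts as measured on an array where the scanner software flags it as well above background. If it was measured on neither array of its lower group it has only a bound, printed as an at-least fold: on each such array the larger of its own signal and the dimmest measured signal stands in for it. Array brightness varied, with 28715 to 44881 spots well above background and no spot saturated. Replicates of 15 groups correlated at r = 0.984 to 0.997 over all genes with 0 to 7 members 2-fold apart. The other 2 groups stood apart: LacZ day 10 had 26 of 38 members at least 2-fold apart (replicate 2 the higher in the median, r = 0.988), and iPSC2-CM day 29 had 25 (r = 0.895). Of the marker genes, those of cardiomyocytes separated neoCM from neoCF: the median of 7 was 7.28 to 7.48 in neoCM, against 0.80 to 1.88 in neoCF. All 9 fibroblast genes were well above background on both neoCF arrays, but not all of them separated the 2 groups. Mean Col1a1 was 7.04 in neoCM and 7.24 in neoCF, and mean Dcn 8.08 and 8.07, while Pdgfra and Thy1 were called lower in neoCM. RNA of fibroblast genes was thus present in neoCM as well.

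In freshly isolated cardiac fibroblasts each of the 38 members was well above background on both neoCF arrays. Probes were kept if both arrays of some group measured them. Cd163 passed through neoCF alone, and H2-Aa through neoCF and day 0 fibroblasts alone. Their detection there was therefore fixed in advance, and the filter favoured lower values of both genes in other groups. With 42998 and 44137 spots well above background, the neoCF arrays were also among those with the highest counts. The median member level was 2.33 and 1.66 there. In neoCF, Csf1r was at 5.89 and 5.34, Emr1 at 2.45 and 1.73, Spi1 at -2.47 and -2.66, Ccr2 at -0.30 and -0.85 and H2-Ab1 at 1.27 and 0.74. Cd163, the scavenger receptor for haemoglobin, was well above background on 4 of all 34 arrays, H2-Aa on 4 and Ccr2 on 7, and both neoCF arrays were among them for each. Spi1 was measured on 22 arrays, Fcgr1, the high-affinity IgG receptor, on 23 and Cd86 on 23. The remaining 32 members were measured on 27 to 34 arrays.

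**Figure D1:**
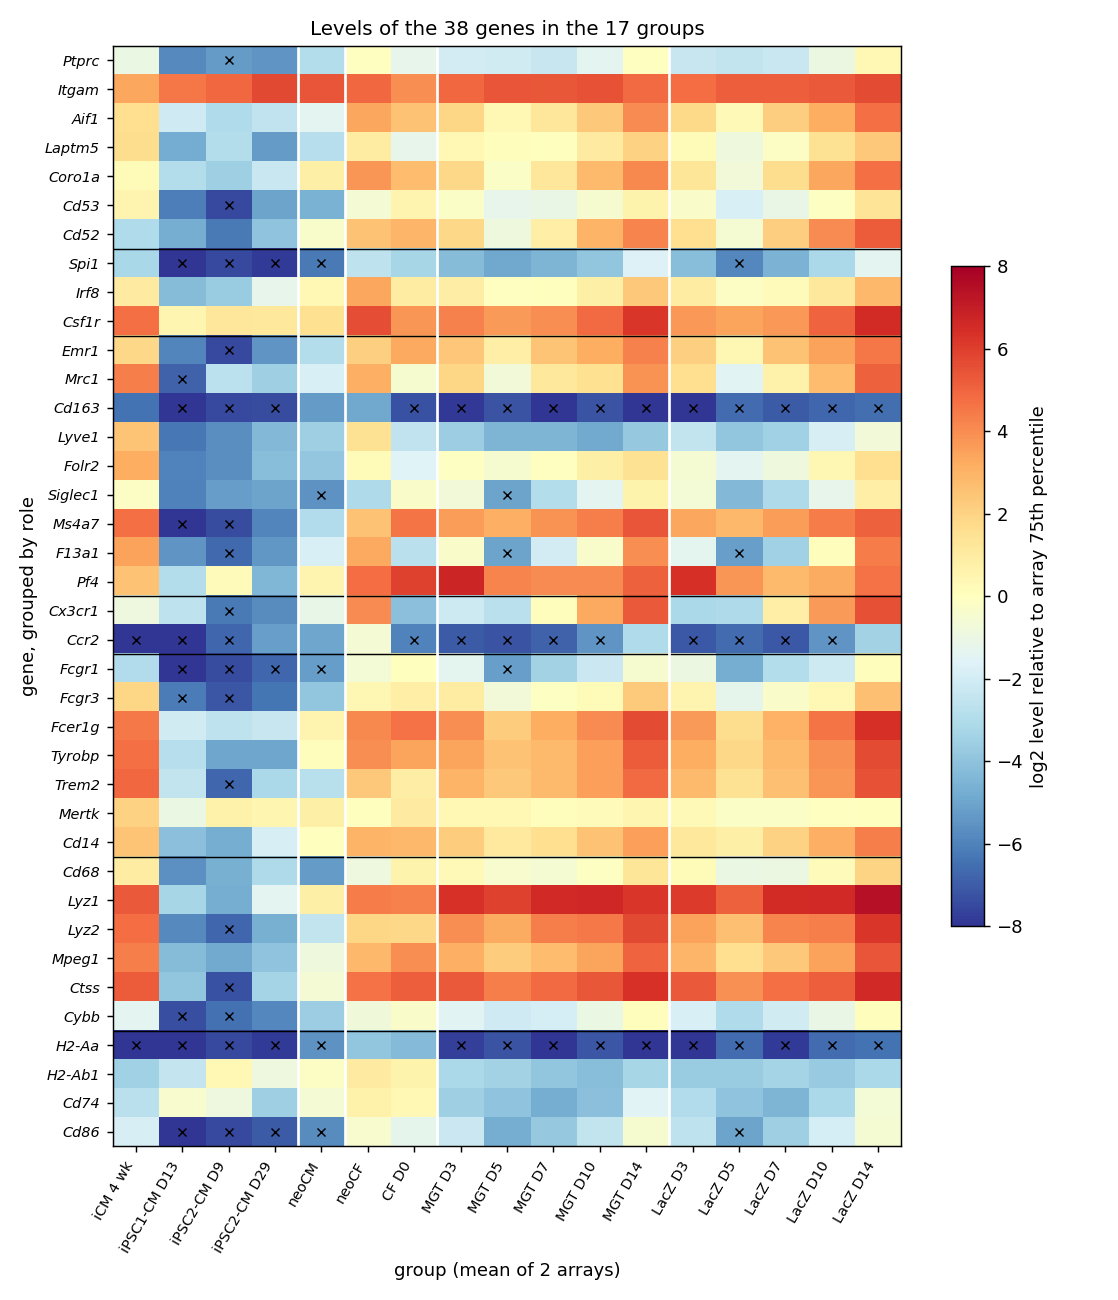
Mean level of each of the 38 members (rows, grouped by role, with lines between roles) in each of the 17 groups (columns, 2 arrays each), coloured by log2 relative to the array's 75th percentile. A cross marks a gene that was not well above background on either array of the group. The crosses lie mostly in the iPSC-CM columns and in the rows of Cd163, Ccr2 and H2-Aa.

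Between freshly isolated fibroblasts and the separate samples of day 0 fibroblasts the set split. Of the 38 members, 4 were higher and 12 lower in day 0 fibroblasts than in neoCF, where 17.5% of all genes were called higher and 17.4% lower. The members' median log2 change was -0.39, and that of all genes 0.11. Cx3cr1 had the largest change. It was at -4.08 and -4.08 in day 0 fibroblasts, against 4.27 and 3.75 in neoCF, a log2 change of -8.08 ± 0.37 (adjusted p = 1.63e-12). Ccr2, the monocyte receptor for Ccl2, was at least 21.7-fold lower (adjusted p = 1.48e-07), with levels of -6.35 and -5.56 in day 0 fibroblasts and -0.30 and -0.85 in neoCF. Both receptors lay below their neoCF range on both arrays.

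Among markers of resident and mature macrophages, 5 of 9 were lower and 3 higher. Cd163, at least 1.07-fold lower (adjusted p = 0.035), is counted among the 5. It passed the probe filter through neoCF alone, so its direction was favoured in advance and its call adds no support. F13a1, the coagulation factor XIII A chain of monocytes and macrophages, was at -2.73 and -2.67 in day 0 fibroblasts and 3.39 and 3.12 in neoCF, a log2 change of -5.96 ± 1.21 (adjusted p = 0.00033). Mrc1, the mannose receptor, was at -0.37 and -0.54 in day 0 fibroblasts, against 3.28 and 2.94 in neoCF, a log2 change of -3.57 ± 0.93 (adjusted p = 0.00293). Lyve1, a hyaluronan receptor, was at -2.45 and -2.60 in day 0 fibroblasts, against 1.89 and 1.01 in neoCF, a log2 change of -3.98 ± 1.03 (adjusted p = 0.00287). Those markers were lower while Siglec1, the sialic acid receptor CD169, was higher. It was at -0.14 and -0.37 in day 0 fibroblasts, against -2.65 and -3.52 in neoCF, a log2 change of 2.83 ± 0.46 (adjusted p = 3.57e-05). Ms4a7 was also higher, a log2 change of 2.06 ± 0.61 (adjusted p = 0.00763), and Emr1 too, at 3.36 and 3.17 in day 0 fibroblasts against 2.45 and 1.73 in neoCF, a log2 change of 1.18 ± 0.36 (adjusted p = 0.00974). The calls for Emr1, Ms4a7 and Cd68 were each lost when 1 array was left out: Emr1 without neoCF replicate 2 or day 0 replicate 1, Ms4a7 without neoCF replicate 2, Cd68 without any 1 of the 4. Without neoCF replicate 2, 1 member was called higher, and without day 0 replicate 1, 2 were.

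Of the lineage genes, 2 of 3 were lower. Irf8, a transcription factor of the monocyte and dendritic lineages, was at 0.97 and 1.02 in day 0 fibroblasts and 3.22 and 3.52 in neoCF, a log2 change of -2.37 ± 0.48 (adjusted p = 0.000303). Csf1r was at 3.83 and 3.70 in day 0 fibroblasts, against 5.89 and 5.34 in neoCF, a log2 change of -1.85 ± 0.30 (adjusted p = 2.77e-05). Spi1 was at -3.23 and -3.35 in day 0 fibroblasts, against -2.47 and -2.66 in neoCF, with a log2 change of -0.72 ± 0.40 that was not called. None of the 7 phagocytic receptors and adaptors was called in either direction, and among 6 lysosomal genes only Cd68 was, a log2 change of 1.52 ± 0.60 (adjusted p = 0.0373). The class II members were not called: H2-Ab1 was at 0.63 and 0.61 in day 0 fibroblasts, against 1.27 and 0.74 in neoCF.

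The 25 further macrophage genes split as well. C1qa, C1qb, C1qc, Cbr2, Cd209f, Clec10a, Gpr34, Pld4, Timd4 and Vsig4 were lower in day 0 fibroblasts, Ccl9, Cd180 and Cd84 were higher, and the rest were not called. Other blood cell genes differed in the same comparison. Of 8 neutrophil genes, 5 were lower, and their summed signal relative to the 75th percentile was 11.7 to 13.7 in day 0 fibroblasts, against 72.5 to 107.4 in neoCF. Of 9 lymphocyte genes 5 were lower, of 5 mast cell genes 4, of 7 endothelial genes 5 and of 7 cardiomyocyte genes 7, while none of 9 fibroblast genes was called. The part of these cell types in the members' changes was not tested. In bulk RNA of this kind, fewer cells of a type and less RNA per cell cannot be told apart.

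On day 3 after infection with LacZ, 1 member was higher and 9 were lower than in day 0 fibroblasts, against 9.23% and 6.29% of all genes. All 4 antigen presentation genes among the members were lower. H2-Ab1 was at -3.56 and -3.75 in LacZ day 3 cells, against 0.63 and 0.61 in day 0 fibroblasts, a log2 change of -4.28 ± 0.33 (adjusted p = 1.01e-08). Cd74 was at -2.88 and -3.04 in LacZ day 3 cells, against 0.41 and 0.34 in day 0 fibroblasts, a log2 change of -3.33 ± 0.29 (adjusted p = 5.74e-08). H2-Aa, measured in day 0 fibroblasts and neoCF and on no LacZ array, was at least 2.64-fold lower (adjusted p = 9.05e-08). It passed the probe filter through those 2 groups alone, so its direction was favoured in advance and its call adds no support. H2-Ab1, Cd74 and H2-Aa lay lower on both day 3 arrays. Of 7 further genes of the class II pathway none was lower and 1 was higher, H2-DMb1, with a log2 change of 1.19 ± 0.19 (adjusted p = 7.14e-05). H2-Eb1, another class II chain, had a log2 change of -0.94 ± 0.37 (adjusted p = 0.0618), and Ciita, the transcriptional coactivator of class II genes, one of -0.04 ± 0.25 (adjusted p = 0.923). Coro1a, an actin-binding protein of leukocytes, was lower as well, at 1.32 and 1.29 in LacZ day 3 cells against 2.88 and 2.58 in day 0 fibroblasts, a log2 change of -1.43 ± 0.36 (adjusted p = 0.00446).

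These 4 calls held with any 1 array left out, and the other 5 (Ptprc, Emr1, Cd14, Cybb and Cd86) did not, so that the count was 4 without any 1 of the 4 arrays. The single higher call, Lyz1, was likewise lost each time. Emr1 was at 2.13 and 2.09 in LacZ day 3 cells, against 3.36 and 3.17 in day 0 fibroblasts, and Csf1r at 3.72 and 3.74 in LacZ day 3 cells, against 3.83 and 3.70 in day 0 fibroblasts. Day 0 and day 3 arrays lay on different slides and scan days, which cannot be told apart from the group here. Of 25 further macrophage genes 7 were higher and 2 lower. The higher ones were C1qa, C1qb, C1qc, Gpr34, Vsig4, Pld4 with a log2 change of 3.38 ± 0.61 (adjusted p = 0.000274) and Cbr2 with one of 4.42 ± 0.54 (adjusted p = 3.74e-06), and the lower ones were Cd209f and Fyb.

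Some genes of dendritic cells and lymphocytes were lower as well. Of 5 dendritic cell genes 1 was lower and none higher, with a summed signal of 0.503 to 0.523 in LacZ day 3 cells and 1.31 to 1.34 in day 0 fibroblasts. Of 9 lymphocyte genes 3 were lower and none higher. Cd3d, a T cell receptor chain, was at least 7.16-fold lower (adjusted p = 7e-06), its partner Cd3g at least 3.93-fold (adjusted p = 6.15e-05) and Ms4a1, a B cell surface protein, at least 1.43-fold (adjusted p = 0.00155). The summed signal of the lymphocyte genes, 2.29 to 2.31 in LacZ day 3 cells and 2.04 to 2.1 in day 0 fibroblasts, does not show this, since its brightest probes, of Cd3e and Nkg7, were not called. The part of these cells in the class II values was not tested.

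Day 5 was the low point of the time course for most members. In LacZ cells 25 of 38 members had their lowest mean on day 5 among days 0 to 14, or 65.8%, against 10.5% of all genes. In MGT cells it was 22 members, or 57.9%, against 12% of all genes. Within a single slide, 10 members were lower on day 5 than on day 3 in LacZ cells and 8 in MGT cells, against 2.33% and 2.04% of all genes. These comparisons were added after the levels had been seen, because of this dip, so their calls describe it. The only higher call in either, H2-Aa in LacZ cells, was of a gene below detection on either day, where 1.16% of all genes were higher in LacZ cells and 0.814% in MGT cells.

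Fcgr1 and Siglec1 had the largest called changes in the LacZ arm. Fcgr1 was at -4.34 and -5.10 in LacZ day 5 cells and -1.02 and -0.93 in LacZ day 3 cells, a log2 change of -3.75 ± 0.50 (adjusted p = 0.000127). In MGT cells it was at -4.93 and -5.37 on day 5 and -1.28 and -1.41 on day 3, at least 11.9-fold lower (adjusted p = 8.62e-05). Siglec1 was at -4.23 and -4.49 in LacZ day 5 cells and -0.67 and -0.68 in LacZ day 3 cells, a log2 change of -3.68 ± 0.46 (adjusted p = 6.76e-05), and in MGT cells it was at least 18.4-fold lower (adjusted p = 1e-05). Cd86 was at least 3.36-fold lower (adjusted p = 0.00134) in LacZ cells and had a log2 change of -2.49 ± 0.42 (adjusted p = 0.00104) in MGT cells. Coro1a was at -0.73 and -0.65 in LacZ day 5 cells, against 1.32 and 1.29 on day 3, a log2 change of -1.99 ± 0.36 (adjusted p = 0.00188). Day 5 arrays of these 4 genes lay below the day 3 arrays in both arms.

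The calls for Fcgr1, Siglec1, Cd86 and Coro1a held in both arms whichever array was left out. Emr1, at 0.45 and 0.31 in LacZ day 5 cells and 2.13 and 2.09 on day 3, lost its call without LacZ day 3 replicate 1 or 2 or LacZ day 5 replicate 2, and in MGT cells without the arrays of the same numbers. F13a1 was at least 24.9-fold lower (adjusted p = 0.0238), at -4.80 and -5.28 in MGT day 5 cells, against -0.27 and -0.31 in MGT day 3 cells, a call lost without any 1 array. The count of members lower in LacZ cells was 5 without LacZ day 3 replicate 1, 5 without LacZ day 3 replicate 2 and 6 without LacZ day 5 replicate 2. In MGT cells it was 5 without MGT day 3 replicate 1, 5 without MGT day 3 replicate 2 and 4 without MGT day 5 replicate 2. Csf1r moved little, at 3.45 and 3.33 in LacZ day 5 cells, against 3.72 and 3.74 on day 3, and was not called, nor was Cx3cr1. Of 25 further macrophage genes, 13 were lower on day 5 in LacZ cells. In MGT cells 9 of them were lower, and none was higher in either arm.

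Neutrophil genes were lower on day 5 too, 3 of 8 in LacZ cells and 4 of 8 in MGT cells, with none higher. S100a9, a calcium-binding protein abundant in neutrophils, was at least 36.8-fold lower in LacZ cells (adjusted p = 0.000693) and at least 65.8-fold lower in MGT cells (adjusted p = 0.000225). Its partner S100a8 was at least 21.1-fold lower in LacZ cells (adjusted p = 1.45e-05) and 18.8-fold lower in MGT cells (adjusted p = 8.07e-05). Mpo, which encodes myeloperoxidase, was 9.89-fold lower in LacZ cells (adjusted p = 0.00627) and 12.8-fold lower in MGT cells (adjusted p = 0.00229), and Camp was called in MGT cells. The summed signal of the list was 11 to 12.9 on day 5 and 12.6 to 14.3 on day 3 in LacZ cells, and 8.2 to 8.92 on day 5 and 11.3 to 13.4 on day 3 in MGT cells, and its brightest probe, of Elane, was not called in either arm. Their part in the dip was not tested.

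**Figure D2:**
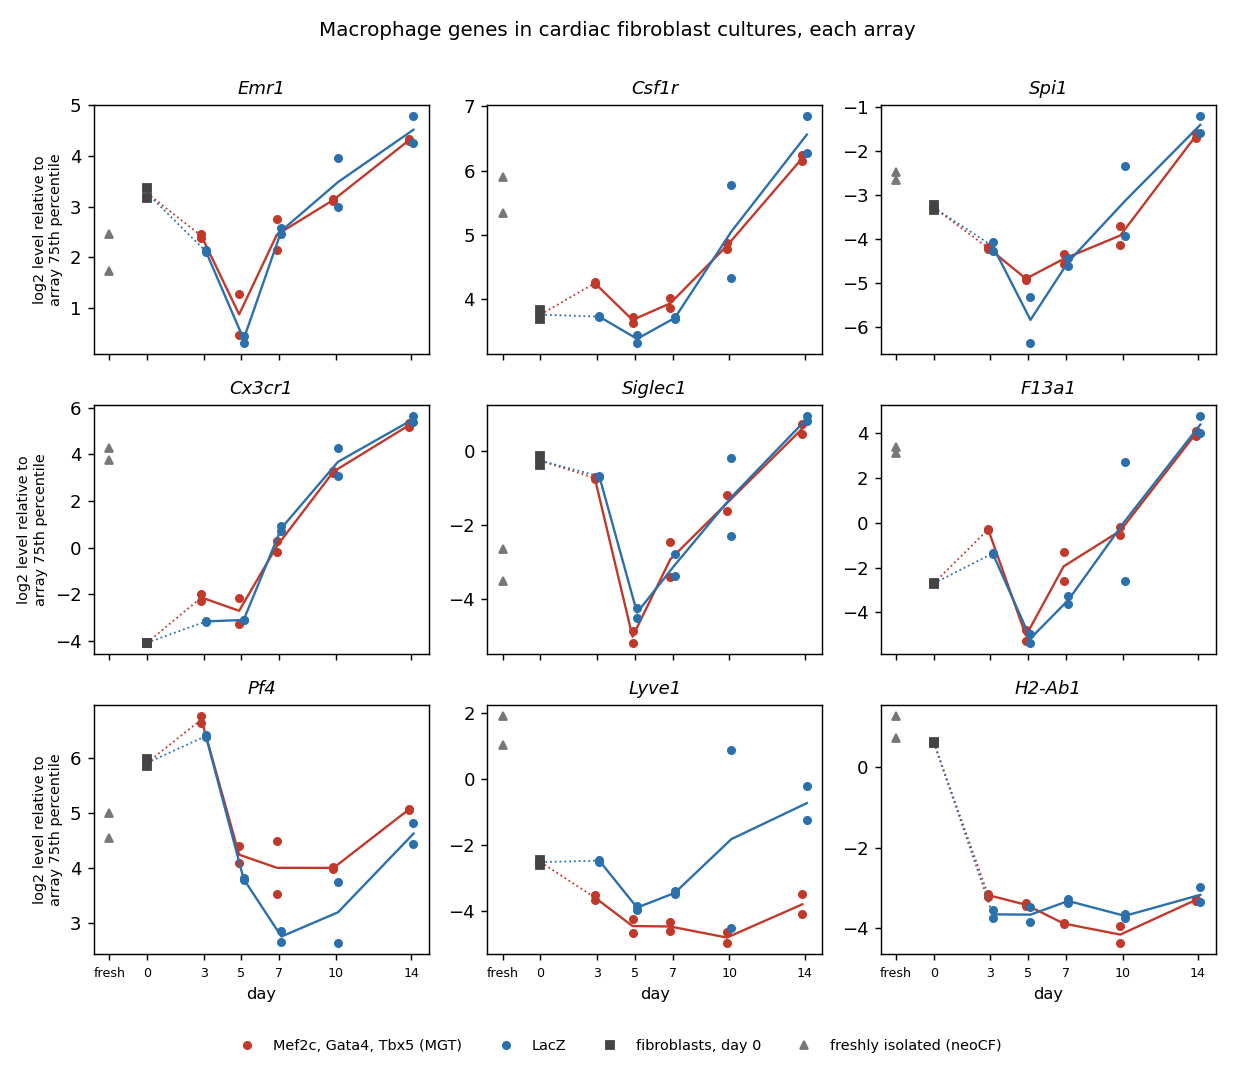
Levels of 9 members over days 0 to 14 (horizontal axis, day after infection; vertical axis, log2 relative to the array's 75th percentile), with each array as a point and lines through the group means of MGT cells and LacZ cells. Squares are day 0 fibroblasts and triangles neoCF. Emr1, Siglec1 and F13a1 are lowest on day 5 in both arms, Cx3cr1 climbs from day 7, Pf4 is highest on day 3, and H2-Ab1 stays below -2 from day 3 on.

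By day 14 the members stood above their day 0 levels. Of 38 members, 23 were higher and 3 lower in LacZ day 14 cells than in day 0 fibroblasts, on the same slide, against 15% and 12.8% of all genes. The median log2 change of the members was 1.70, and that of all genes 0.06. In LacZ cells 33 members had their highest mean on day 14, or 86.8%, against 26.7% of all genes, and in MGT cells 28, or 73.7%, against 23.1%. In LacZ day 14 cells against day 0 fibroblasts, the 12 members not called had log2 changes between -1.29 and 1.79. Of the 23 higher calls, 19 held whichever array was left out. Emr1, Fcgr3, Tyrobp and Mpeg1 each lost theirs without LacZ day 14 replicate 2 or day 0 replicate 2, and Fcgr3 and Mpeg1 also without day 0 replicate 1.

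Both chemokine receptors were higher. Cx3cr1 was at 5.40 and 5.64 in LacZ day 14 cells, against -4.08 and -4.08 in day 0 fibroblasts, a log2 change of 9.59 ± 0.37 (adjusted p = 3.04e-13). Its course had no dip on day 5: LacZ arrays were at -3.19 and -3.13 on day 3, -3.09 and -3.10 on day 5, 0.94 and 0.73 on day 7 and 3.08 and 4.29 on day 10. Ccr2 was at least 3.04-fold higher (adjusted p = 0.00102), and at -3.09 and -3.73 in LacZ day 14 cells it lay below its neoCF levels of -0.30 and -0.85. The lineage genes rose together, 3 of 3. Cx3cr1, Ccr2, Csf1r and Irf8, like Laptm5, Coro1a and Ptprc, had been called lower on day 0 than in neoCF. Day 0 arrays serve in both comparisons, so the opposite directions of these genes are not independent. Csf1r was at 6.28 and 6.84 in LacZ day 14 cells, against 3.83 and 3.70 in day 0 fibroblasts, a log2 change of 2.79 ± 0.30 (adjusted p = 2.42e-07). Spi1 was at -1.22 and -1.61 in LacZ day 14 cells, against -3.23 and -3.35 in day 0 fibroblasts, a log2 change of 1.88 ± 0.40 (adjusted p = 0.000622), and Irf8 showed a log2 change of 1.84 ± 0.48 (adjusted p = 0.00343).

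Of the markers of resident and mature macrophages, 4 of 9 were higher. F13a1 was at 4.02 and 4.77 in LacZ day 14 cells and -2.73 and -2.67 in day 0 fibroblasts, a log2 change of 7.10 ± 1.21 (adjusted p = 7.07e-05). Mrc1 was at 4.80 and 5.33 in LacZ day 14 cells, against -0.37 and -0.54 in day 0 fibroblasts, a log2 change of 5.52 ± 0.93 (adjusted p = 6.28e-05). Folr2, a folate receptor of resident macrophages, was at 1.55 and 1.67 in LacZ day 14 cells, against -1.70 and -1.52 in day 0 fibroblasts, a log2 change of 3.22 ± 0.53 (adjusted p = 5.41e-05). Emr1 was at 4.25 and 4.79 in LacZ day 14 cells, against 3.36 and 3.17 in day 0 fibroblasts, a log2 change of 1.26 ± 0.36 (adjusted p = 0.00762). F13a1, Mrc1 and Folr2 are markers that had been lower on day 0 than in neoCF; day 0 arrays serve in both comparisons, so the opposite directions are not independent. Pf4, the chemokine platelet factor 4, was at 4.44 and 4.81 in LacZ day 14 cells, against 5.98 and 5.86 in day 0 fibroblasts, and was not called; its highest LacZ arrays were those of day 3, at 6.42 and 6.39.

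Among receptors and adaptors of phagocytosis 4 of 7 were higher. Trem2, a lipid-sensing receptor that signals through the adaptor Tyrobp, was at 5.25 and 5.74 in LacZ day 14 cells, against 0.99 and 0.85 in day 0 fibroblasts, a log2 change of 4.58 ± 0.88 (adjusted p = 0.000252). Fcer1g, the signalling chain shared by Fc receptors, was at 6.14 and 6.69 in LacZ day 14 cells, against 4.74 and 4.53 in day 0 fibroblasts, a log2 change of 1.78 ± 0.39 (adjusted p = 0.000952). Mertk, which binds dying cells through Gas6 and Pros1, was at 0.17 and -0.06 in LacZ day 14 cells, against 1.05 and 1.02 in day 0 fibroblasts, with a log2 change of -0.98 ± 0.15 that fell short of 2-fold, and Fcgr1 was not called, at 0.01 and 0.20 in LacZ day 14 cells, against 0.10 and 0.00 in day 0 fibroblasts. The lysozymes rose: Lyz2 was at 6.04 and 6.45 in LacZ day 14 cells, against 1.94 and 1.80 in day 0 fibroblasts, a log2 change of 4.37 ± 0.80 (adjusted p = 0.000153), and Lyz1 showed a log2 change of 3.16 ± 0.65 (adjusted p = 0.000472). Lyz1 and Lyz2 are close paralogs, and cross-hybridisation between their probes was not tested. Laptm5, a lysosomal membrane protein of blood cells, was at 2.66 and 2.08 in LacZ day 14 cells, against -1.28 and -1.14 in day 0 fibroblasts, a log2 change of 3.58 ± 0.59 (adjusted p = 4.89e-05), and 6 of 7 pan-leukocyte genes were higher. One of those is Itgam, whose probe lay near 5 in most groups, iPSC-CM included, and whose 3 probes disagreed, with log2 changes of 0.54, 1.42 and -1.83 in neoCM against neoCF.

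Of the 4 antigen presentation genes, 3 were lower and none higher. H2-Ab1 was at -2.98 and -3.36 in LacZ day 14 cells and 0.63 and 0.61 in day 0 fibroblasts, a log2 change of -3.79 ± 0.33 (adjusted p = 1.53e-08). H2-Aa was at least 1.13-fold lower (adjusted p = 2.92e-05), a bound short of 2-fold, and the probe filter had favoured that direction. Cd74 was at -0.66 and -0.68 in LacZ day 14 cells, against 0.41 and 0.34 in day 0 fibroblasts, a log2 change of -1.04 ± 0.29 (adjusted p = 0.006), with -4.62 and -4.27 on day 7 in LacZ cells. Cd86 was at -0.32 and -0.75 in LacZ day 14 cells, against -1.22 and -1.35 in day 0 fibroblasts, and was not called. Of 7 further genes of the class II pathway 2 were higher, the chains of the peptide-loading molecule: H2-DMa showed a log2 change of 2.06 ± 0.35 (adjusted p = 6.53e-05) and H2-DMb1 a log2 change of 3.52 ± 0.19 (adjusted p = 2.15e-11). H2-Ab1 was thus lower in the same cultures in which these chains were higher.

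In MGT day 14 cells 20 members were higher and 3 lower than in day 0 fibroblasts, against 15.9% and 15.6% of all genes. H2-Aa, whose direction the probe filter favoured, was among the 3 lower. That comparison was added after the levels had been seen, shares the day 0 arrays with the LacZ one, and runs across slides, which cannot be told apart from the group. Cx3cr1 was at 5.16 and 5.34 in MGT day 14 cells, Csf1r at 6.15 and 6.24, Emr1 at 4.29 and 4.33, Spi1 at -1.72 and -1.61, Ccr2 at -3.15 and -2.85 and H2-Ab1 at -3.32 and -3.27. Of the 20 higher calls 11 held whichever array was left out. The count was 12 without day 0 replicate 2, 13 without MGT day 14 replicate 1 and 11 without MGT day 14 replicate 2.

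**Figure D3:**
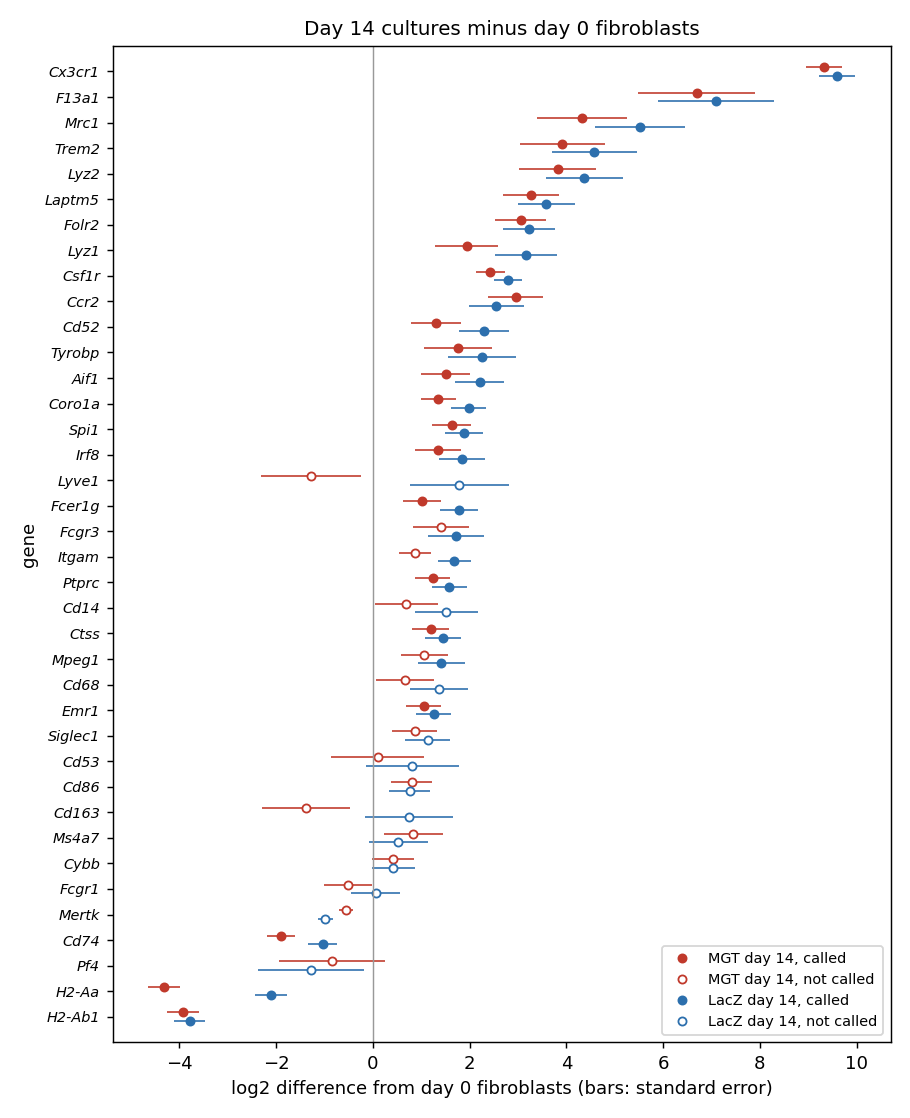
Log2 change of each of the 38 members (rows, ordered by the LacZ value) on day 14 against day 0 fibroblasts, for MGT and LacZ cells, with bars for the standard error and filled points for called genes. Cx3cr1 has the highest value in both arms, H2-Ab1 and H2-Aa the 2 lowest, and Lyve1 lies on opposite sides of 0 in MGT and LacZ cells without a call in either.

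Genes outside the members that mark macrophages were also examined. Of 25 further macrophage genes, 17 were higher and none lower in LacZ day 14 cells than in day 0 fibroblasts. The 3 chains of complement C1q showed a log2 change of 5.02 ± 0.63 (adjusted p = 2.11e-06) for C1qa, a log2 change of 5.00 ± 0.40 (adjusted p = 4.47e-09) for C1qb and a log2 change of 5.68 ± 0.82 (adjusted p = 1.09e-05) for C1qc. Cbr2 showed a log2 change of 7.79 ± 0.54 (adjusted p = 7.26e-10), and Gpr34, a lysophospholipid receptor, was at least 45.3-fold higher (adjusted p = 2.54e-07). Of 8 neutrophil genes none was higher and 4 were lower, with a summed signal of 4.89 to 7.68 in LacZ day 14 cells and 11.7 to 13.7 in day 0 fibroblasts. Of 5 dendritic genes 2 were lower and none higher, and of 9 lymphocyte genes likewise 2. Of 5 mast cell genes 1 was higher and 2 lower, and of 5 osteoclast-like genes 2 were lower. Of 9 fibroblast genes 1 was higher and none of 8 cell cycle genes was called.

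Ligands that act on macrophages were examined beside their receptors. Of 13 ligand genes 5 were higher and 3 lower in day 0 fibroblasts than in neoCF. The colony-stimulating factors showed a log2 change of 4.56 ± 0.44 (adjusted p = 4.26e-08) for Csf1, the ligand of Csf1r, a log2 change of 6.19 ± 0.40 (adjusted p = 1.45e-10) for Csf2 and a log2 change of 5.41 ± 0.72 (adjusted p = 3.2e-06) for Csf3. The monocyte chemokines showed a log2 change of 3.97 ± 1.10 (adjusted p = 0.00479) for Ccl2 and a log2 change of 5.29 ± 0.95 (adjusted p = 9.6e-05) for Ccl7. In LacZ day 14 cells, against day 0 fibroblasts, Csf1 had a log2 change of -1.60 ± 0.44 (adjusted p = 0.00521) and Ccl7 a log2 change of -2.55 ± 0.95 (adjusted p = 0.0328), Csf2 was at least 47.9-fold lower (adjusted p = 2.65e-11) and Csf3 at least 33.3-fold lower (adjusted p = 3.82e-07). Higher in the same comparison were Cx3cl1, the fractalkine that binds Cx3cr1, a log2 change of 4.06 ± 0.36 (adjusted p = 1.87e-08), and the Mertk ligands Gas6, a log2 change of 3.94 ± 0.50 (adjusted p = 2.35e-06), and Pros1, a log2 change of 1.27 ± 0.13 (adjusted p = 1.64e-07). Gas6 had been lower in day 0 fibroblasts than in neoCF, a log2 change of -1.25 ± 0.50 (adjusted p = 0.0413). Day 0 arrays enter both comparisons, so opposite signs, as for Csf1, Csf2, Csf3, Ccl7 and Gas6, are not independent.

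The direct question of the time course is whether MGT changed these genes relative to LacZ. On days 3, 5, 7 and 10, when both arms lay on 1 slide, limma called no member in either direction. Standard errors were pooled over all groups, LacZ day 10 and iPSC2-CM day 29 included, so the absence of a call does not show the absence of a change. With array weights, an alternative, 3 members were called higher and 1 lower on day 3, and 1 and 1 on day 7. At an unadjusted p under 0.05, 1 member was higher and 0 lower on day 3, 2 and 0 on day 5, 1 and 1 on day 7, and 0 and 2 on day 10. Of all genes 3.22% were called higher and 1.87% lower on day 3, 4.84% and 3.46% on day 5, 5.27% and 3.51% on day 7, and 5.32% and 3.31% on day 10. The median log2 change of the members was 0.23, 0.44, 0.08 and -0.35 on these days, and that of all genes -0.05, -0.10, -0.09 and -0.12.

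Csf1r was at 4.23 and 4.27 in MGT day 3 cells, against 3.72 and 3.74 in LacZ day 3 cells, a log2 change of 0.52 ± 0.30 (SE). On day 7 it was at 3.86 and 4.02 in MGT cells, against 3.70 and 3.72 in LacZ cells. Emr1 had a log2 change of 0.31 ± 0.36 on day 3, 0.49 ± 0.36 on day 5 and -0.08 ± 0.36 on day 7, so that 0 lay within 2 standard errors on each day. Mertk passed the adjusted p on day 5 (0.00865) with a log2 change of 0.59 ± 0.15, short of 2-fold. Spi1 was at -4.58 and -4.34 in MGT day 7 cells, against -4.43 and -4.62 in LacZ day 7 cells. Ccr2 was not well above background in either arm on these 3 days.

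Day 10 rests on LacZ replicates that disagree. Mrc1 was at 1.27 and 1.77 in MGT day 10 cells, against 0.52 and 4.89 in LacZ day 10 cells, and F13a1 at -0.53 and -0.17 in MGT day 10 cells, against -2.58 and 2.73 in LacZ day 10 cells. Lyve1 was at -4.97 and -4.65 in MGT day 10 cells, against -4.53 and 0.87 in LacZ day 10 cells. The MGT arrays lay between the 2 LacZ arrays for Mrc1 and F13a1, and below both for Lyve1. Without LacZ day 10 replicate 1, 9 members were called lower in MGT cells (Ptprc, Coro1a, Spi1, Mrc1, Lyve1, Siglec1, Fcer1g, Cd74 and Cd86), with Mrc1 at a log2 change of -3.37 and Lyve1 at -5.68. Without LacZ day 10 replicate 2 none was, and without MGT day 10 replicate 2 there was 1. The change of the MGT effect between day 3 and day 10, tested as an interaction, called no member (0 higher and 2 lower at an unadjusted p under 0.05, 1.41% and 0.582% of all genes called), and 7 lower without LacZ day 10 replicate 1.

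The same pair of arrays weighs on the rise within the LacZ arm. Between day 3 and day 10 of LacZ, 8 members were higher, of which 7 were measured above background, against 3.88% of all genes. None was lower (2 at an unadjusted p under 0.05), against 3.95%. The count of higher members was 15 without LacZ day 10 replicate 1 and 4 without replicate 2, and 4 and 5 without LacZ day 3 replicates 1 and 2. Cx3cr1, a log2 change of 6.85 ± 0.37 (adjusted p = 9.02e-10), Coro1a, a log2 change of 2.07 ± 0.36 (adjusted p = 0.000448), and Cd52, a log2 change of 2.42 ± 0.53 (adjusted p = 0.00347), were called whichever array was left out. In MGT cells only Cx3cr1 was called between those days, a log2 change of 5.40 ± 0.37 (adjusted p = 1.81e-08), where 3.29% of all genes were higher and 2.68% lower. It was at 3.22 and 3.30 in MGT day 10 cells and -1.98 and -2.28 in MGT day 3 cells. Days 3 and 10 lay on different slides.

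**Figure D4:**
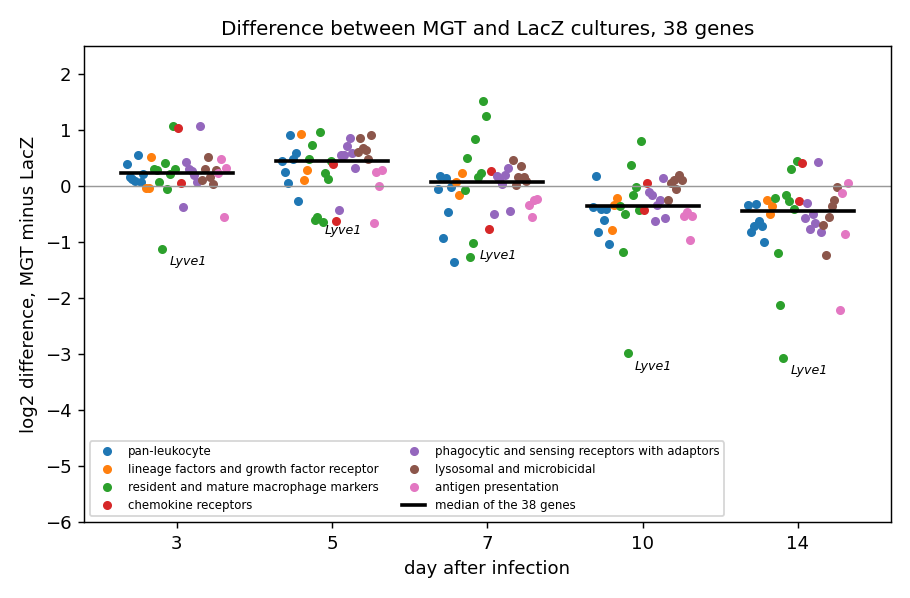
Log2 change of each member in MGT against LacZ cells (vertical axis) on days 3, 5, 7, 10 and 14 (horizontal axis), with each member as a point coloured by role and a bar at the members' median. The medians lie between -0.45 and 0.44, and Lyve1 has the lowest values on days 10 and 14.

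On day 14, 2 members were lower in MGT than in LacZ cells and none higher, against 7.05% and 5.94% of all genes. At an unadjusted limma p under 0.05, 5 were lower and 1 higher. The log2 change was negative in 33 members and positive in 5, while 41.2% of all genes had a positive one. Of the 2 members called, H2-Aa was not well above background in either group, so no direction is drawn from it. The other was Lyve1, at -3.50 and -4.11 in MGT day 14 cells and -1.25 and -0.23 in LacZ day 14 cells, a log2 change of -3.07 ± 1.03 (adjusted p = 0.0368), a call that was lost without any 1 of the 4 arrays. Cd74 was at -1.76 and -1.30 in MGT day 14 cells, against -0.66 and -0.68 in LacZ day 14 cells, a log2 change of -0.86 ± 0.29, not called. Csf1r was at 6.15 and 6.24 in MGT day 14 cells, against 6.28 and 6.84 in LacZ day 14 cells, a log2 change of -0.37 ± 0.30. The 2 groups lay on different slides, which cannot be told apart from the infection.

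Lyve1 is also a gene of lymphatic endothelium, and endothelial genes were examined beside it. The days of their calls differed. In MGT against LacZ cells Lyve1 was called on day 14 alone, and on day 7 had a log2 change of -1.02 ± 1.03 (limma adjusted p = 0.66). On day 7, 3 of 7 endothelial genes were lower in MGT cells, with a log2 change of -3.57 ± 0.93 for Tie1, -2.79 ± 0.86 for Cdh5 and -2.64 ± 0.77 for Emcn (limma adjusted p = 0.0114, 0.033 and 0.0236). On day 10 Tie1 was lower, at least 7.40-fold (adjusted p = 0.0137), and Cdh5, Emcn and Tek were not called, with log2 changes of -2.34 ± 0.86, -1.95 ± 0.77 and -1.89 ± 0.85 (adjusted p = 0.0785, 0.106 and 0.167). Kdr, the brightest probe of the list, had a log2 change of -0.12 ± 0.24 on day 10, and most of the summed signal is its own. On day 14 no endothelial gene was called. Their summed signal on day 10 was 9.66 to 11.2 in MGT cells, against 11.7 to 13.6 in LacZ cells, and on day 14 7.36 to 7.92 in MGT cells, against 9.53 to 17.4 in LacZ cells. Their part in the Lyve1 values was not tested.

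At 4 weeks, contractile iCM held a different mix of these genes. Against LacZ day 14 cells 3 members were higher and 20 lower, 19 of them measured above background, where 10.3% of all genes were higher and 17.8% lower. Against MGT day 14 cells 3 were higher and 17 lower, where 8.70% and 11.7% of all genes were. The iCM lay on another slide and scan day than the day 14 cells, and the labels name the StemPro-34 medium for the iCM, so that these cannot be told apart from time in culture. Without iCM replicate 1 or MGT day 14 replicate 2 the 17 became 10, and the 3 higher than LacZ became 1 without either iCM array or LacZ day 14 replicate 1.

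Cd52, Cx3cr1 and Coro1a had the largest measured falls. Cd52, a small leukocyte surface protein, was at -3.09 and -2.98 in iCM, against 5.28 and 5.16 in LacZ day 14 cells, a log2 change of -8.25 ± 0.53 (adjusted p = 4.21e-10). Cx3cr1 was at -0.72 and -1.15 in iCM, against 5.40 and 5.64 in LacZ day 14 cells, a log2 change of -6.45 ± 0.37 (adjusted p = 1.22e-10). Ccr2 was at least 6.3-fold lower (adjusted p = 2.26e-06). Coro1a was at 0.01 and 0.45 in iCM, against 4.66 and 4.76 in LacZ day 14 cells, a log2 change of -4.48 ± 0.36 (adjusted p = 8.54e-09). Emr1 was at 1.87 and 1.79 in iCM, against 4.25 and 4.79 in LacZ day 14 cells, a log2 change of -2.69 ± 0.36 (adjusted p = 6.66e-06). Spi1 showed a log2 change of -1.82 ± 0.40 (adjusted p = 0.000962) and Csf1r a log2 change of -1.85 ± 0.30 (adjusted p = 4.59e-05). All of these were called whichever array was left out.

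Lyve1, Folr2 and Mertk were higher. Lyve1 was at 2.48 and 2.45 in iCM, against -1.25 and -0.23 in LacZ day 14 cells, a log2 change of 3.20 ± 1.03 (adjusted p = 0.0157). Folr2 was at 3.05 and 3.20 in iCM, against 1.55 and 1.67 in LacZ day 14 cells, a log2 change of 1.51 ± 0.53 (adjusted p = 0.0256). Mertk was at 1.93 and 2.16 in iCM, against 0.17 and -0.06 in LacZ day 14 cells, a log2 change of 1.99 ± 0.15 (adjusted p = 2.86e-09). The Lyve1 call was lost without iCM replicate 1, iCM replicate 2 or LacZ day 14 replicate 1, and that of Folr2 without any 1 array, while Mertk kept its own. Mrc1, at 4.37 and 4.36 in iCM, against 4.80 and 5.33 in LacZ day 14 cells, and Tyrobp, at 4.65 and 4.76 in iCM, against 5.53 and 5.84 in LacZ day 14 cells, were not called. Against MGT day 14 cells Lyve1 was also higher, a log2 change of 6.27 ± 1.03 (adjusted p = 9.4e-05). Cell cycle genes fell beside these changes: 8 of 8 were lower in iCM, with a summed signal of 5.44 on both iCM arrays and 49.9 to 53.1 in LacZ day 14 cells, and their part was not tested. Of 25 further macrophage genes 3 were higher and 14 lower.

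Set against freshly isolated fibroblasts, the iCM had 9 members higher and 13 lower, where 17.8% and 19.5% of all genes were. The iCM lay on another slide and scan day than neoCF. Slide, scan day, medium and time in culture cannot be told apart from the group here. Folr2 was at 3.05 and 3.20 in iCM, against 0.65 and -0.24 in neoCF, a log2 change of 2.92 ± 0.53 (adjusted p = 0.000116). Siglec1 was at -0.26 and -0.07 in iCM, against -2.65 and -3.52 in neoCF, a log2 change of 2.92 ± 0.46 (adjusted p = 2.56e-05), and Lyz2 at 4.77 and 4.73 in iCM, against 2.22 and 1.60 in neoCF, a log2 change of 2.85 ± 0.80 (adjusted p = 0.00499). Mertk showed a log2 change of 1.98 ± 0.15 (adjusted p = 1.24e-09). H2-Ab1 was at -3.55 and -3.35 in iCM, against 1.27 and 0.74 in neoCF, a log2 change of -4.46 ± 0.33 (adjusted p = 1.18e-09), and Cx3cr1 at -0.72 and -1.15 in iCM, against 4.27 and 3.75 in neoCF, a log2 change of -4.94 ± 0.37 (adjusted p = 1.77e-09). Emr1 was at 1.87 and 1.79 in iCM, against 2.45 and 1.73 in neoCF, and not called. Without neoCF replicate 2, 5 members were called higher.

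Most members were lower in freshly isolated cardiomyocytes and in iPSC-CM than in neoCF. In neoCM 35 of 38 members were lower than in neoCF and none higher (1 at an unadjusted p under 0.05), against 16.2% and 15.4% of all genes. The 3 members not called were Itgam, Mertk and Cd163, of which Cd163 was called higher without neoCM replicate 1 (log2 change 1.97). In neoCM 31 to 32 of 38 members were still well above background, and Csf1r was at 1.58 and 1.47 in neoCM, against 5.89 and 5.34 in neoCF, a log2 change of -4.09 ± 0.30 (adjusted p = 1.48e-09). The 2 other Csf1r probes had changes of -4.35 and -0.52 in this comparison, so 1 of the 3 disagreed in size. Emr1 was at -2.78 and -2.98 in neoCM, against 2.45 and 1.73 in neoCF, a log2 change of -4.97 ± 0.36 (adjusted p = 1.61e-09). H2-Ab1 was at 0.00 and -0.31 in neoCM, against 1.27 and 0.74 in neoCF, a call lost without neoCF replicate 1 or neoCM replicate 2. The neoCM replicates lay on 2 slides and apart from neoCF, which cannot be told apart from the cell type.

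In iPSC1-CM day 13, 37 members were lower than in neoCF and none higher (0 at an unadjusted p under 0.05), against 16.5% and 15.5% of all genes. In iPSC2-CM day 9, 35 were lower and none higher (1 at an unadjusted p under 0.05), against 21.2% and 21.6%. Csf1r was at 0.42 and 0.55 in iPSC1-CM, with iPSC2-CM day 9 arrays at 0.94 and 1.47, against 5.89 and 5.34 in neoCF. Emr1 was at -5.28 and -6.58 in iPSC1-CM, against 2.45 and 1.73 in neoCF, and Spi1 was not measured in iPSC1-CM or in iPSC2-CM. H2-Ab1 kept a measured signal, at -0.03 and 0.69 in iPSC2-CM day 9, against 1.27 and 0.74 in neoCF. Cd74 did so too, at -0.48 and -0.39 in iPSC1-CM, against 0.92 and 0.42 in neoCF. These groups lay on another slide than neoCF, scanned on the same day, and slide and cell type cannot be told apart.

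In iPSC2-CM on day 29, against day 9, 13 members were higher and 4 lower, where 14.9% and 9.39% of all genes were, but the 2 day 29 arrays disagree. Trem2 was at -0.80 and -5.48 on day 29, against -7.23 and -6.26 on day 9, and F13a1 at -3.13 and -7.71 on day 29, against -7.47 and -5.83 on day 9. The count of higher members was 7 without day 29 replicate 1, 22 without day 29 replicate 2 and 8 without day 9 replicate 1. Irf8, at -2.41 and -0.07 on day 29 and -3.94 and -3.38 on day 9, and Ctss, the lysosomal protease cathepsin S, at -2.55 and -4.10 on day 29 and -7.26 and -7.34 on day 9, were among the 5 higher calls that held whichever array was left out.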

How the data were processed

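RNA of 34 cultures or cell isolates in 17 groups was hybridised to single-colour Agilent arrays. The scanner files hold fluorescence intensity per spot, background-adjusted and detrended by Agilent's software (Feature Extraction, version 10.7.3.1 per the file headers), and the authors deposited a second table of log2 values (column medians 7.49 to 7.52), with limma named in the submitters' processing notes. Replicate numbers come from the labels.

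Here log2 of the processed intensity, without a pseudocount, was averaged over spots of a probe after outlier spots (119 to 321 an array) were left out, and the array's 75th percentile (616.9 to 3151 intensity units) was subtracted. A probe was kept if both arrays of some group had it well above background (43370, of which 25639 had a gene). Of 55681 probes, 26162 were named through RefSeq accessions (GRCm38.p6), 3130 by symbol and 911 by an older symbol. The probe with the highest mean stood for its gene (19410 genes, 187 with a missing value). A gene averaged over all probes, or the authors' values, served as alternatives.

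All arrays entered 1 limma fit (limma 3.58.1, R 4.3.3, data.table in version 1.17.8) with a mean per group, 17 residual and 1.99 prior degrees of freedom, which assumes a spread common to all groups. The fit was run on simulated data with equal spread in every group, which cannot test that assumption. In the data, the standard deviation of replicate differences over all genes ran from 0.32 in LacZ day 3 to 1.73 in iPSC2-CM day 29. Tables and figures used Python 3.11.15, numpy 2.4.6, pandas 2.3.3 and matplotlib 3.10.9. The members, the other gene lists and the comparisons were chosen with earlier results of these data known, and 3 comparisons (day 5 against day 3 in each arm, and MGT day 14 against day 0) after the levels had been seen. The rule for named genes was the members with the largest and smallest changes of each role, and always Emr1, Csf1r, Spi1, H2-Ab1 and Ccr2. It allows more genes than are given. The arrays lie on 6 slides scanned on 3 days, and their number limits the precision.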

Additional observations from a re-analysis of the deposited data

How the results depend on the processing

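Of 10526 values of single members recomputed under the alternatives, 10019 kept their direction and side of the threshold, 299 lost the call, 199 gained one and 9 changed sign. The sign changes were of H2-Aa in MGT against LacZ day 14 (0.053 with normexp and quantile normalization, 0.14 with the authors' values), in LacZ day 10 against day 3 (-0.083 and -0.18) and in iCM against LacZ day 14 (0.038 with normexp), of Cd163 in neoCM against neoCF (1.97 without neoCM replicate 1, -2.67 without replicate 2), and in iPSC2-CM day 29 against day 9 of Cd53 (-0.23 without day 29 replicate 1, 5.15 without replicate 2), Lyz2 (-0.034 and 4.20) and Tyrobp (-1.87 and 1.86). The causes were not tested, but H2-Aa and Cd163 lay at background in most groups. Scalings moved the median change of all genes by -0.20 to 0.19. The all-gene split of MGT against LacZ day 14 was 1153 higher and 1369 lower, against 1341 and 758 with quantile normalization.

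Counts of members called that moved over 1.5 times are as follows. With array weights, MGT against LacZ called 3 higher and 1 lower on day 3, 1 and 1 on day 7, and 1 lower on day 10, and the change of the MGT effect 2 lower. LacZ day 3 against day 0 had 7 higher and 14 lower, LacZ day 10 against day 3 had 2 lower, MGT day 10 against day 3 had 3 higher and 1 lower, and day 0 against neoCF had 7 higher. LacZ day 5 against day 3 had 2 higher and 24 lower, MGT day 5 against day 3 had 13 lower, MGT day 14 against day 0 had 5 lower, and iPSC2-CM day 29 against day 9 had 0 and 0. With normexp, MGT against LacZ had 1 lower on days 7, 10 and 14, LacZ day 3 against day 0 had 4 higher, LacZ day 10 against day 3 had 2 lower, MGT day 10 against day 3 had 2 higher and 1 lower, LacZ day 5 against day 3 had 0 higher, and iPSC2-CM day 29 against day 9 had 5 higher. With the authors' values, MGT against LacZ had 1 lower on days 7 and 14, LacZ day 3 against day 0 had 3 higher, LacZ day 10 against day 3 had 1 lower and LacZ day 5 against day 3 had 0 higher. With quantile normalization, MGT against LacZ day 14 had 1 lower, day 0 against neoCF 2 higher, and LacZ day 5 against day 3 had 0 higher. Without the filter on dim probes LacZ day 10 against day 3 had 1 lower, with all probes averaged LacZ day 3 against day 0 had 2 higher, and with slide as a random block (consensus correlation -0.11) the last had 2 higher, LacZ day 10 against day 3 had 1 lower and MGT day 10 against day 3 had 2 higher. The causes were not tested.

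With 1 array left out at a time, the lone array being assumed to vary like the other groups, counts lay between 0 and 9 lower for MGT against LacZ day 10, 1 and 2 lower for day 14, 0 and 7 lower for the change of the MGT effect, 0 and 0 higher and 4 and 4 lower for LacZ day 3 against day 0, and 4 and 15 higher and 0 and 2 lower for LacZ day 10 against day 3. They lay between 1 and 4 higher for day 0 against neoCF, 0 and 1 higher for neoCM, 5 and 8 higher for iCM against neoCF, 1 and 2 higher for iCM against LacZ day 14, 10 and 13 lower for iCM against MGT day 14, and 7 and 22 higher for iPSC2-CM day 29. For day 5 against day 3 they were 0 and 1 higher and 5 and 7 lower in LacZ cells and 4 and 7 lower in MGT cells, and for MGT day 14 against day 0 11 and 15 higher. A fixed slide block adds nothing where both groups lie on 1 slide and could not be fitted where slide and group coincide. The replicate numbers did not pair the samples (correlations of deviations -0.13 to 0.17 over 136 pairs of groups, 8 above 0.1), and a replicate block moved the count of LacZ day 14 against day 0 to 25 higher, of LacZ day 3 against day 0 to 8 lower, of LacZ day 10 against day 3 to 7, of iPSC2-CM day 29 to 12 and of MGT day 14 against day 0 to 19, and no other count.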
